A study of Caenorhabditis elegans with 8 samples.

Results

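The genes described here encode the enzymes of the methionine and S-adenosylmethionine (SAM) cycle of Caenorhabditis elegans and of its first branches: ahcy-1, sams-1, sams-3, sams-4, sams-5, metr-1, mtrr-1, pmt-1, pmt-2 and cbs-1. They are 10 of the 19971 protein-coding genes in the gene table used. The pathway was chosen by the fold enrichment of the ahcy-1 peak, which is among the strongest in the data, so the height of that peak is a description and no finding. The other 9 genes were taken for their place in the pathway, with earlier results of these data known. For each gene every peak summit inside the gene or within 2000 bp of it was listed.

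SAM is the main methyl donor of the cell. SAM synthetases make it from methionine and ATP, methyltransferases use it and leave S-adenosylhomocysteine, and S-adenosylhomocysteine hydrolase splits that product, which otherwise inhibits methyltransferases, into adenosine and homocysteine. Homocysteine is either remethylated to methionine by vitamin B12-dependent methionine synthase or passed on to cysteine and glutathione by cystathionine beta-synthase. In C. elegans much of the SAM goes into phosphatidylcholine through the phosphoethanolamine methyltransferases, and loss of sams-1 is known to lower phosphatidylcholine and to activate lipid synthesis.

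The binding of SKN-1, a transcription factor related to mammalian Nrf2, was mapped by chromatin immunoprecipitation and sequencing in whole animals, unstarved and grown at 20°C. All groups carry SKN-1 tagged with green fluorescent protein, which is wild-type SKN-1 in one genotype (WT) and the gain-of-function allele SKN-1gf(lax188) in the other (GF). Each genotype has 2 samples with antibody, whose peak lists are called WT 1, WT 2, GF 1 and GF 2, and 2 without antibody that were not analysed here. Age, sex and whether replicates came from separate cultures are not given in the sources used here. In whole animals, strong binding in few cells and weak binding in many cannot be told apart.

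WT 1 held 15943 peaks and WT 2 29541, while GF 1 held 25007 and GF 2 only 905. They carry no read counts, so the depth is unknown and a missing peak is a missing call. Fold enrichment is the authors' value for each peak over the caller's background, and it ranks peaks within a list only. With 2 lists against 2 the smallest two-sided exact p is 0.333, so nothing was tested between genotypes. In the WT 2 list the peaks are named for replicate 1, so its origin rests on the sample record. Where values are given for a genotype as a pair, replicate 1 comes first. Positions of peaks are those of the deposited lists, for which the submitters' processing notes name build ce10. The genes were placed with a table of assembly WBcel235, which gives no strand, exons or introns, so a place along a gene is given as a percent of its length from the end with the lower coordinate. A shift of 100 bp between builds would move a place by 5.98% of the shortest gene, ahcy-1, and by 1.496% of the longest, pmt-2.

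Most of the cycle genes had a summit in each long list, as most genes of any kind did. A summit lay inside or within 2000 bp of 8 and 10 of the 10 genes in the WT lists, and of 8 and 3 in the GF lists, against 58.6%, 81.8%, 75.6% and 7.06% of all protein-coding genes. Among genes of the members' own range of lengths (1672 to 6684 bp) these shares were 60.0%, 83.8%, 77.6% and 6.91%. Leaving out ahcy-1, the counts were 7, 9, 7 and 2 of 9. The genes with a summit in all 4 lists were ahcy-1, sams-1 and metr-1, against 5.65% of all genes. Both WT lists had a summit at 8 of the 10, against 56.1%, and both GF lists at 3, against 6.62%. Without ahcy-1, whose fold led to the choice, 2 of 9 had a summit in all 4 lists. Likewise 7 of 9 had one in both WT lists and 2 of 9 in both GF lists. In WT 1, WT 2 and GF 1 together 7 of the 10 had a summit, against 53.3%. At a -log10 q of at least 5 the counts were 4 of 10 in WT 1 (36.1% of all genes), 4 in both WT lists (33.8%) and 4 in these 3 lists (31.4%), all close to the background. At the same q, WT 2 alone had 9 of 10 against 66.0%, and GF 1 alone 7 of 10 against 56.7%. In GF 2 the count was 2 of 10 against 4.17%, or 1 of 9 without ahcy-1. The counts were not tested.

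In all, the lists held 68 summits at these genes, 16 and 26 in the WT lists, with 22 and 4 in the GF lists. Of these, 44 lay inside a gene. A summit lay inside 8, 8, 8 and 2 of the 10 genes in WT 1, WT 2, GF 1 and GF 2, against 34.2%, 55.4%, 49.2% and 2.65% of all genes. Without ahcy-1 these counts were 7, 7, 7 and 1 of 9. The shares were not matched for gene length, and the median member was 3206 bp long against 2006 bp for all genes. For 12 of the 24 summits outside, another protein-coding gene was nearer. The farthest summits within the limit lay 1895 bp outside pmt-2 in GF 1 and 1850 bp in WT 2. Where a gene had no summit within the limit, the nearest lay 2668 bp from sams-4 in WT 1 and 2753 bp from sams-3 in GF 1. These are the summits inside sams-3 in WT 1 and inside sams-4 in GF 1, which are already counted.

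**Figure D1:**
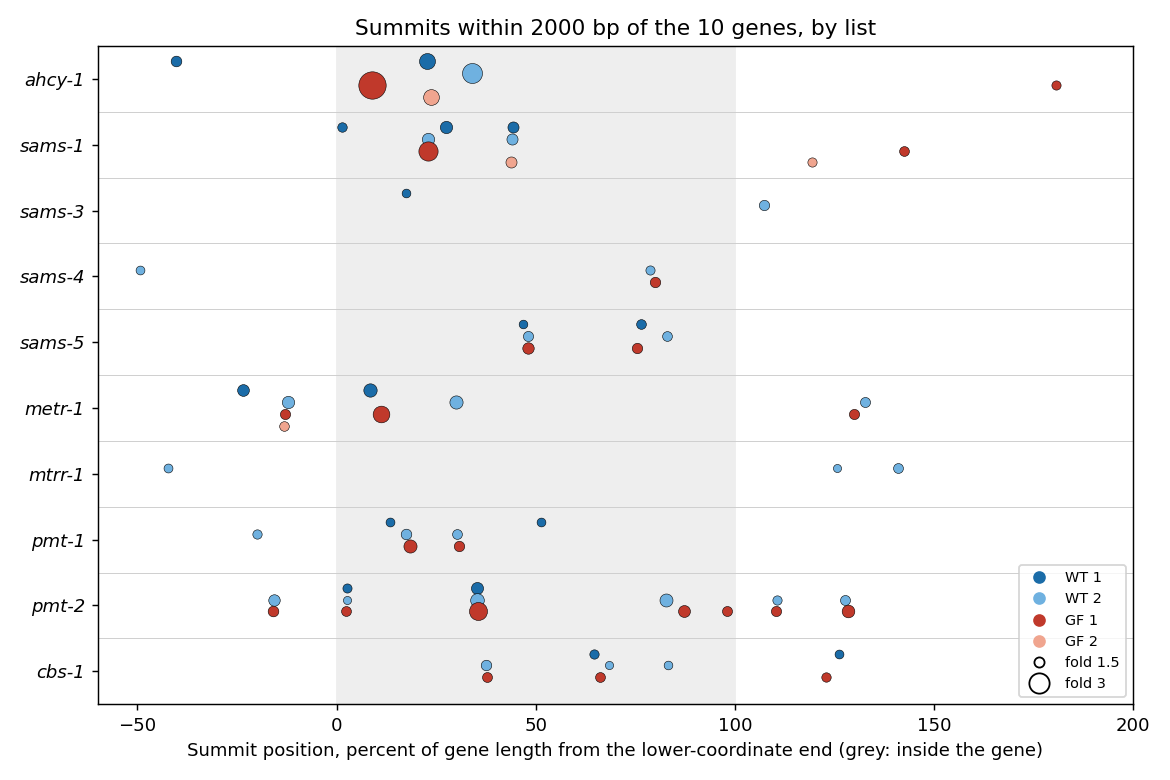
Position of every summit within 2000 bp of the 10 genes, as a percent of gene length from the end with the lower coordinate (x axis), in rows by gene. Colours mark the 4 lists, the area of a point grows with the square of its fold, and grey marks the inside of the gene. Of the 68 summits 44 lie inside, and mtrr-1 has none inside.

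The SAM synthetase genes differed from each other. sams-1, on chromosome X, had a peak inside the gene in each list, with the strongest summit between 22.9% and 43.8% of its length. sams-3, sams-4 and sams-5, all on chromosome IV, had weak peaks and none in GF 2. SAM synthetase makes SAM, and sams-1 is known for its part in phosphatidylcholine synthesis and lifespan. Its strongest peak had folds of 1.82 and 1.83 in the WT lists, with 2.85 and 1.64 in the GF lists. The median fold of all peaks was 1.46, 1.47, 1.55 and 1.51 in the same lists. Each value thus lay above the median of single peaks in its own list, which is not a median of strongest peaks per gene. Among all protein-coding genes ordered by their strongest peak, sams-1 was number 1114, 2651, 226 and 478. By fold the strongest sams-1 peak ranked 960 and 2304 in the WT lists, with 149 and 243 in the GF lists. These peaks did not all share a place, as the GF 2 summit lay at 43.8% of the gene.

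The peaks inside sams-1 fell at a pair of places that recurred between lists. The summits of WT 2 (at 11966864 on chromosome X) and GF 1 (at 11966866) lay 2 bp apart, at 22.97% of the gene. A second place, at 44.1% of the gene, held summits of WT 1, WT 2 and GF 2 within 15 bp (11967684 to 11967699). In the WT lists this was a separate narrow peak of 187 and 198 bp with folds of 1.64 in both. In GF 2 it was the only peak inside the gene (497 bp). The GF 1 peak was 2015 bp wide and spanned both places (11966247 to 11968261). WT 1 placed its strongest summit at 27.4% of the gene and had a further summit of fold 1.40 at its lower end. Outside the gene, GF 1 and GF 2 each had a summit on the upper side (folds of 1.45 and 1.37), and both lay inside the neighbouring gene set-6.

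sams-3 and sams-4 are closely related copies that lie next to each other, and the sources used here do not say how reads that match both were placed, so their peaks are uncertain. sams-3 had a summit inside the gene in WT 1 (fold 1.29, rank 14834 of 15943). Its other summit, in WT 2 (fold 1.53), lay 160 bp outside it and inside C06E7.4. GF 1 and GF 2 had none within the limit. sams-4 had summits 26 bp apart in WT 2 (fold 1.36) and GF 1 (fold 1.54), at 79.3% of the gene. Its second WT 2 summit (fold 1.31) lay inside the neighbour C06E7.2. These are peaks of low fold in 1 or 2 lists each.

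sams-5 had a similar arrangement of peaks in the 3 long lists. A summit near its middle (47.6% of the gene) lay within 28 bp in WT 1, WT 2 and GF 1, with folds of 1.28, 1.51 and 1.69. A second summit had folds of 1.44, 1.45 and 1.54 and lay at 76.3%, 82.9% and 75.3% of the gene. Peaks covered 19.5% of the gene in WT 1, 47.1% in WT 2 and 41.7% in GF 1. The place near the middle ranked 15047, 12663 and 6549 by fold, so in WT 1 it was close to the weakest peaks of the list.

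pmt-1 and pmt-2 encode the enzymes that methylate phosphoethanolamine to phosphocholine with SAM as donor. Both had peaks in each long list and none in GF 2, where the nearest summit lay 61788 bp from pmt-1 and 99573 bp from pmt-2. pmt-2, on chromosome V, had the stronger peak of the pair in each long list.

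The strongest peak of pmt-2 had a fold of 1.79 in WT 1, 2.02 in WT 2 and 2.66 in GF 1. Its summit lay at 35.3% of the gene and within 18 bp in the 3 lists (4630934 to 4630952 on chromosome V). The width was 307 bp in WT 1, 1331 bp in WT 2 and 1807 bp in GF 1, so the lists shared the summit and not the extent. It ranked 1102, 938 and 226 by fold. pmt-2 is the longest of the 10 genes and also had the most summits, 15 over the lists. At 2.53% of the gene a weaker summit recurred within 20 bp in the same 3 lists (folds of 1.35, 1.205 and 1.46). Near the other end WT 2 had a summit at 82.6% of the gene (fold 1.92), and GF 1 had them at 87.2% (1.76) and 98.1% (1.48). On the upper side, outside the gene, WT 2 and GF 1 had paired summits 16 bp and 45 bp apart, the second with folds of 1.49 and 1.87. On the lower side their paired summits, 21 bp apart, lay inside sumv-2.

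pmt-1, on chromosome II, had its strongest peak in the lower part of the gene, with a fold of 1.31 in WT 1, 1.57 in WT 2 and 1.94 in GF 1. The WT 2 and GF 1 summits lay 47 bp apart at 17.9% of the gene, and the WT 1 summit lay at 13.4%. The peak ranked 14203 of 15943 in WT 1 and 2149 of 25007 in GF 1. A second, wider peak had its summit at 30.5% of the gene in WT 2 and GF 1 (31 bp apart, folds of 1.45 and 1.54, widths of 878 and 1220 bp). WT 1 had a weak summit at 51.4% (fold 1.304) under the same merged region.

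**Figure D2:**
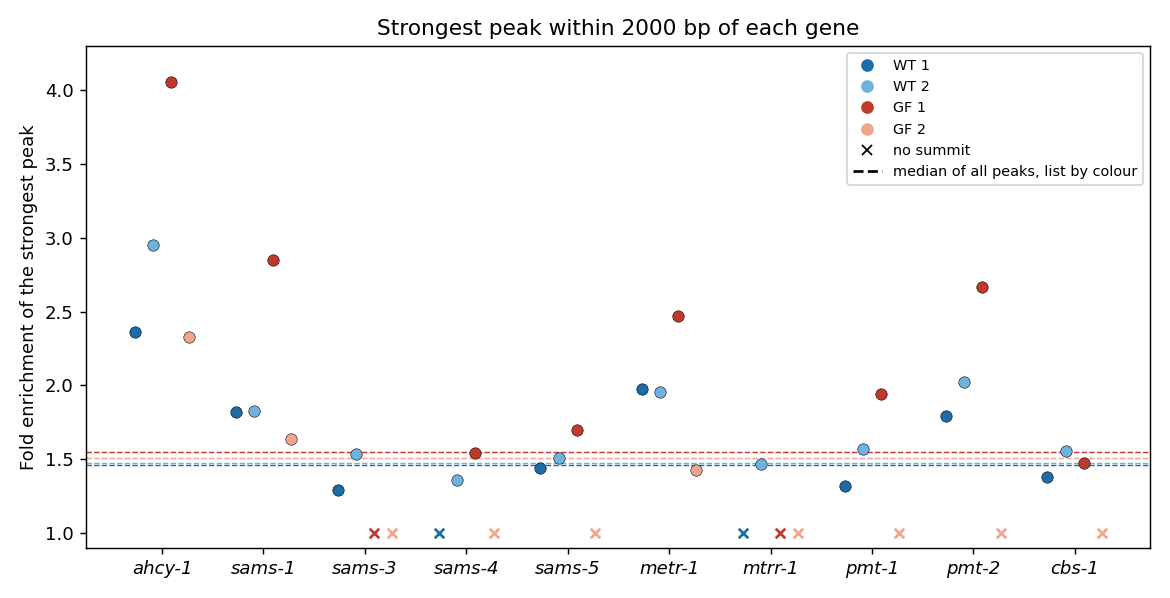
Fold enrichment (y axis, from 0.9) of the strongest peak with its summit within 2000 bp of each gene, by list. Crosses at the bottom mark lists with no summit and carry no value, and dashed lines give the median fold of all peaks, from 1.46 to 1.55. These medians are of single peaks, while each point is the strongest of the peaks at a gene. ahcy-1 has the highest point in each list, up to 4.05 in GF 1.

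ahcy-1 encodes the only enzyme of the cycle that removes S-adenosylhomocysteine. It had a peak over the whole gene in each of the 4 lists, at folds of 2.36 and 2.95 in the WT lists, with 4.05 and 2.33 in the GF lists. These values led to the choice of the gene. The peak ranked 137, 45, 15 and 21 by fold, which is the first 0.859%, 0.152%, 0.0600% and 2.32% of the list. By -log10 q it ranked lower, at 240, 163, 79 and 46. Among all protein-coding genes ordered by their strongest peak, ahcy-1 was number 145, 54, 33 and 40.

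The width of the ahcy-1 peak was not itself a criterion of the choice, but whether it is independent of the fold was not tested. It was 2103 bp and 2752 bp in the WT lists, with 2730 bp and 2707 bp in the GF lists, where the median peak of these lists was 255, 293, 276 and 263 bp wide. By width it ranked 27, 62, 73 and 2. The ends of the peak recurred as well: in WT 2, GF 1 and GF 2 it began between 6835480 and 6835541 and ended between 6838231 and 6838247 on chromosome I. WT 1 had a gap instead, with a separate peak of 522 bp (fold 1.58) on the lower side, from 6835523 to 6836044, and the main peak from 6836414 to 6838516. The summit moved within this block. It lay at 22.8% of the gene in WT 1 and 23.7% in GF 2, 15 bp apart, and at 34.1% in WT 2 and 8.98% in GF 1. The whole gene lay under peaks in all 4 lists, as did 0.155%, 0.481%, 0.451% and 0.120% of all genes in WT 1, WT 2, GF 1 and GF 2. ahcy-1 is the shortest member, and these shares were not matched for gene length or fold. A further GF 1 summit (fold 1.37), 1347 bp outside, lay inside the neighbour dpf-3.

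By the ranks of the strongest peak over the 4 lists, the 5 genes most like ahcy-1 among the 1129 genes with a summit in all 4 lists fell at 2 places. The first was dpf-3, a peptidase gene 214 bp away on the upper side, which counts the same summit of ahcy-1 as its own. The others were rps-4, Y43B11AR.3, nssp-41 and deb-1 on chromosome IV, which share 1 peak. That peak ranked 198, 76, 14 and 16 (distance of 0.304 in log10 rank).

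**Figure D3:**
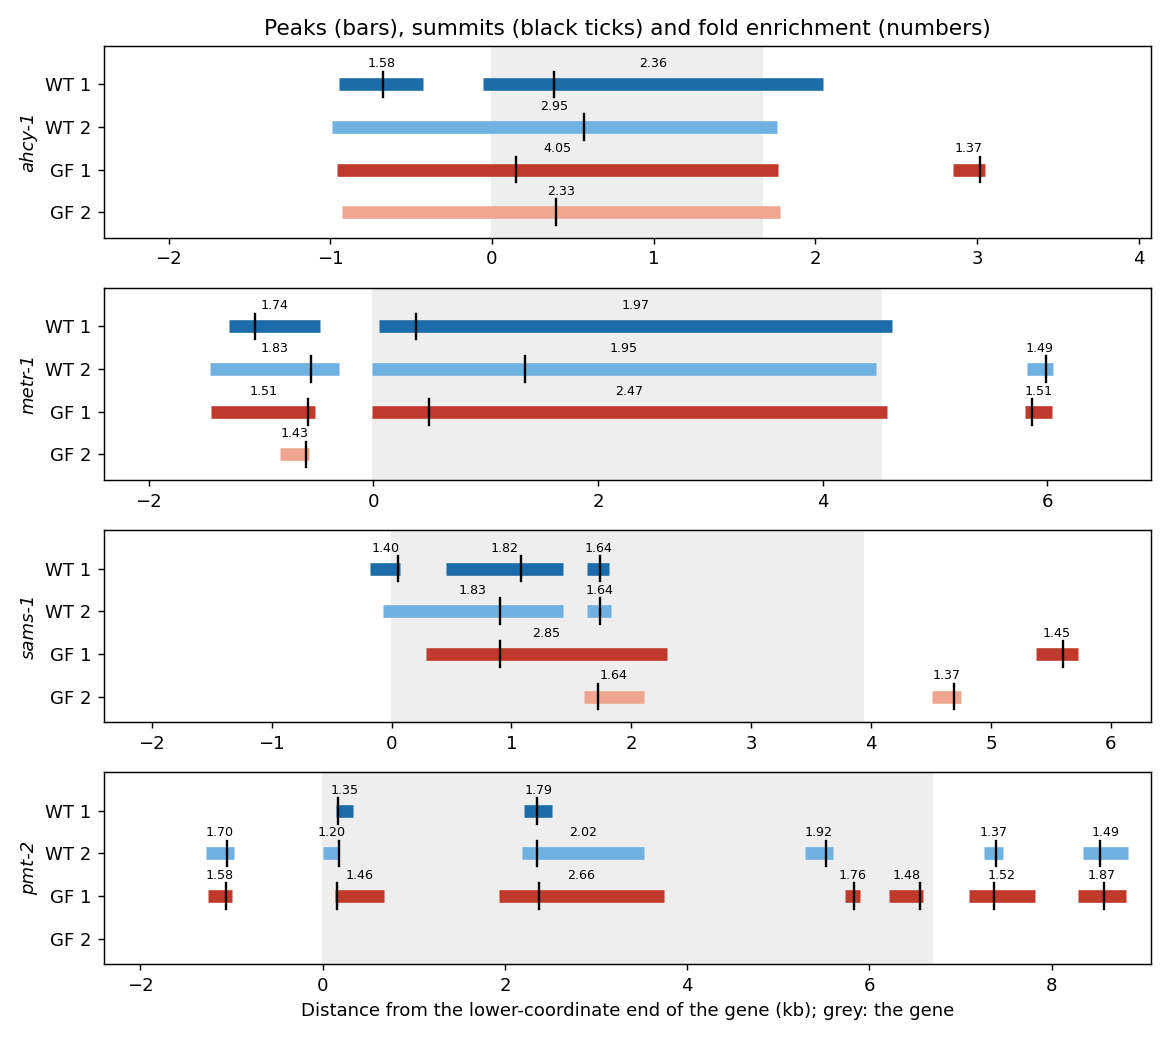
Peaks (bars), summits (ticks) and folds (numbers) at ahcy-1, metr-1, sams-1 and pmt-2 in the 4 lists, by distance in kb from the lower-coordinate end of the gene (grey). The bars at ahcy-1 span the gene in each list, and those at metr-1 span it in WT 1, WT 2 and GF 1 with widths of 4571, 4493 and 4592 bp. At pmt-2 the summits of these 3 lists align within 18 bp.

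metr-1 encodes the vitamin B12-dependent methionine synthase and mtrr-1 the reductase that keeps that enzyme active. These partners in 1 reaction had unlike peaks. metr-1 had a single wide peak along its length in the 3 long lists, and mtrr-1 had no summit inside the gene in any list.

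The metr-1 peak was 4571 bp wide in WT 1, 4493 bp in WT 2 and 4592 bp in GF 1, for a gene of 4518 bp. It was the second widest peak of WT 1 and ranked 14 and 8 by width in WT 2 and GF 1. It began and ended close to the gene, merging to 10926545 to 10931182 on chromosome II, and covered 98.9%, 99.1% and 100% of the gene in WT 1, WT 2 and GF 1. The fold at its summit was 1.97 in WT 1, 1.95 in WT 2 and 2.47 in GF 1, and it ranked 486, 1279 and 363. The summit differed from list to list, at 8.48%, 29.9% and 11.03% of the gene. A separate peak lay on the lower side of the gene in all 4 lists, with folds of 1.74, 1.83, 1.51 and 1.43. Its summit lay within 42 bp in WT 2, GF 1 and GF 2 (10925964 to 10926006), between 555 and 597 bp outside the gene, and 1058 bp outside in WT 1, where Y19D2B.2 was nearer. In GF 2 this flanking peak was the only one, and no part of metr-1 lay under a peak. On the upper side WT 2 and GF 1 had summits (1.49 and 1.51) nearer to R03D7.2 than to metr-1.

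mtrr-1 had 3 summits, all in WT 2, the longest list, and all outside the gene. They lay 812 bp, 1289 bp and 1337 bp away, with folds of 1.202, 1.46 and 1.32. The nearest summit in the other lists lay 8649 bp away in WT 1, 7670 bp in GF 1 and 10432 bp in GF 2.

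cbs-1, on chromosome X, encodes the enzyme that leads homocysteine out of the cycle. It had weak peaks in the 3 long lists and none in GF 2. The strongest had a fold of 1.38 in WT 1, 1.56 in WT 2 and 1.47 in GF 1. Only the WT 2 value exceeded the median of all peaks in its list, which is not a median of strongest peaks per gene. Among all protein-coding genes ordered by their strongest peak, cbs-1 was number 9657, 8885 and 12348 in these lists. The WT 2 and GF 1 summits lay 12 bp apart at 37.6% of the gene. WT 1 and GF 1 summits lay 44 bp apart at 65.4%, and WT 2 had weaker ones at 68.3% and 83.2% (1.22 and 1.29). The summits of WT 1 (1.31) and GF 1 (1.39) on the upper side lay inside ZC373.2.

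The genes thus differed in how much of their length lay under peaks. At least 50% of the gene was covered in 2 members in WT 1 and 2 in WT 2 (ahcy-1 and metr-1), 3 in GF 1 (these and sams-1, with 51.2%) and 1 in GF 2 (ahcy-1). Of all genes, 2.96%, 9.49%, 7.66% and 0.531% were. The member counts each include ahcy-1, which led to the choice. The mean gene was covered to 6.95% and 16.1% in the WT lists, with 13.3% and 0.806% in the GF lists. No peak touched mtrr-1 in any list, and sams-3 was covered to 7.77% in WT 1 only.

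**Figure D4:**
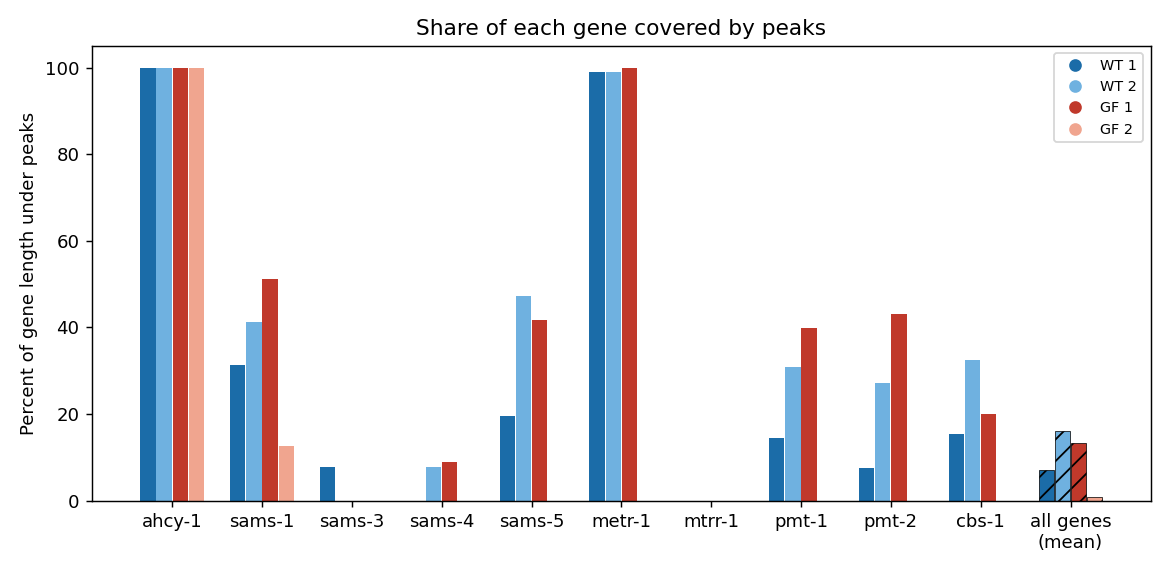
Percent of gene length under peaks (y axis) in each list (colours) for the 10 genes, with the mean over 19971 protein-coding genes hatched at the right. ahcy-1 is at 100% in each list, metr-1 at 98.9% to 100% in the 3 long lists and at 0 in GF 2, and mtrr-1 at 0 throughout.

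Summits of different lists were also compared by position. At 16 places in 8 genes, 12 of them inside the gene, summits of at least 2 lists were linked by steps of at most 50 bp, and 5 of these places held 3 lists. Of the 26 WT 2 summits 12 lay within 50 bp of a GF 1 summit, against 38.2% of all WT 2 peaks. Of the 16 WT 1 summits 4 lay so close to a WT 2 summit and 5 to a GF 1 summit, against 48.2% and 44.4%. Within 50 bp of a GF 2 summit lay 2 WT 1 summits, 2 WT 2 summits and 1 of the 22 GF 1 summits. The shares of all peaks were 1.61%, 1.03% and 1.29%. The 2 WT 1 summits were at sams-1 and ahcy-1.

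With every list cut to the 905 peaks of highest fold, the length of GF 2, ahcy-1 was the only member with a summit in all 4, which follows from how the pathway was chosen. The share of all genes there was 0.561%, and 0 of the other 9 members had one. metr-1 had one in WT 1, GF 1 and GF 2, sams-1 in GF 1 and GF 2, and pmt-2 in GF 1. The counts were 2 and 1 in the WT lists, with 4 and 3 in the GF lists, beside 5.27%, 5.51%, 6.08% and 7.06% of all genes. Without ahcy-1 they were 1, 0, 3 and 2 of 9, so the only member in WT 2 was the gene that led to the choice. sams-1 (rank 960) in WT 1 and pmt-2 (rank 938) in WT 2 lay just past this limit. The differences between these counts were not tested.

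Other genes of the pathway were taken from a list by role, of which 68 of 69 names matched the gene table. That list too was chosen with earlier results of these data known. In WT 1 and WT 2, 44 (64.7%) and 56 (82.4%) of these 68 genes had a summit within 2000 bp, while GF 1 and GF 2 had 57 (83.8%) and 14 (20.6%). The background shares are the 58.6%, 81.8%, 75.6% and 7.06% given above. All 4 lists had a summit at 13 of the 68, against 5.65% of all genes, and no list had one at 7, against 12.2%. The place of these summits was not listed, so a peak given below for a gene may lie nearer to another gene. With each summit counted for its nearest gene only, 33, 48, 46 and 10 of the 68 had one. The shares of all genes were then 40.8%, 62.7%, 56.3% and 3.49%. No share here was matched for gene length. These counts were not tested.

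**Figure D5:**
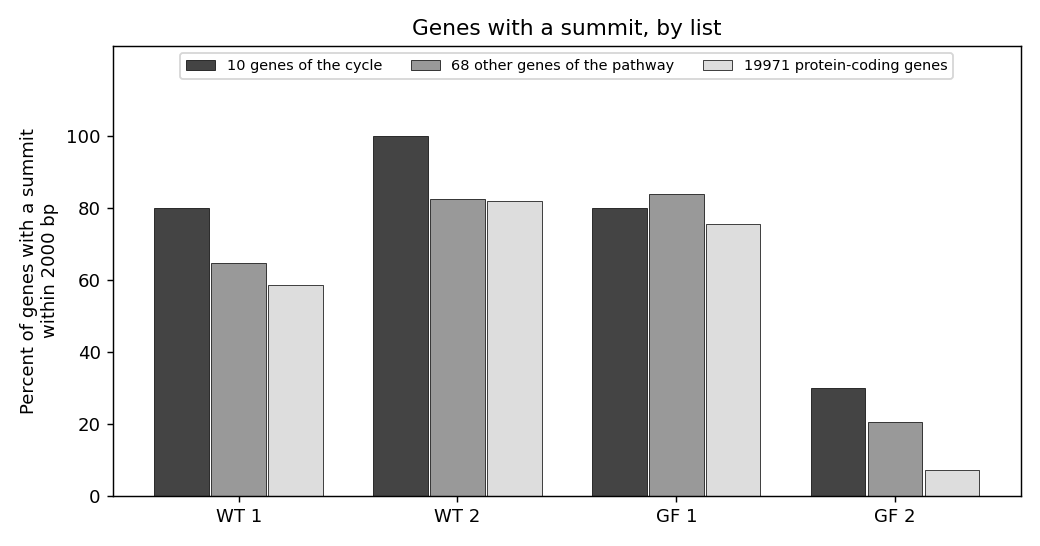
Percent of genes with a summit within 2000 bp (y axis) in each list, for the 10 genes of the cycle, 68 other genes of the pathway and all 19971 protein-coding genes. In WT 2 the 3 shares are 100%, 82.4% and 81.8%, and in GF 2 the pathway genes stand at 20.6% against 7.06% of all genes. The shares are not matched for gene length.

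The folate and vitamin B12 arm, as listed, supplies the methyl group for methionine synthase only in part. In it 6, 11, 12 and 2 of 14 genes had a summit in WT 1, WT 2, GF 1 and GF 2. The shares of all genes were 58.6%, 81.8%, 75.6% and 7.06%. Those in all 4 lists were mthf-1, which encodes the reductase that makes methyl-tetrahydrofolate (folds of 1.38, 1.62, 1.72 and 1.42), and mmaa-1 (1.58, 1.41, 1.67 and 1.52). cblc-1, a B12-processing gene, and mel-32, a serine hydroxymethyltransferase gene, came next by mean rank over the 3 long lists, with folds of up to 1.73 and 1.78.

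Among transsulfuration and sulfur genes, 10, 11, 12 and 1 of 13 had a summit, against 58.6%, 81.8%, 75.6% and 7.06% of all genes. cth-2, a cystathionine gamma-lyase gene, was the one in all 4 lists (1.42, 1.38, 1.44 and 1.59). Higher folds in the long lists were found at cysl-4 (1.77, 1.91 and 2.46) and cysl-3 (1.72, 1.83 and 2.61), members of the cysteine synthase-like family. Both lie on chromosome V and neither had a summit in GF 2.

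In the CDP route to phospholipids, the alternative to pmt-1 and pmt-2, 7, 7, 7 and 3 of 10 genes had a summit. Of all genes, 58.6%, 81.8%, 75.6% and 7.06% had one. pcyt-1, the gene for the rate-limiting enzyme, had folds of 1.47, 1.28, 1.46 and 1.58 in WT 1, WT 2, GF 1 and GF 2. pcyt-2.1, a gene of the ethanolamine branch, had 1.43, 1.64, 3.16 and 1.67, and its GF 1 peak ranked 82. By mean rank over the 3 long lists cept-2 and cka-2 followed, with folds of up to 1.85 and 1.89. cka-1, named after its values were seen, had no summit in WT 2 and folds of 1.71 in WT 1, 2.01 in GF 1 and 2.04 in GF 2, where its peak ranked 51. Of the 3 genes of polyamine synthesis, smd-1, which encodes SAM decarboxylase, had folds of 1.54, 1.98 and 2.11 and odc-1, for ornithine decarboxylase, 1.71, 1.78 and 1.51 in the long lists. GF 2 had none of the 3, against 7.06% of all genes.

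Of 19 methyltransferase genes that use SAM, 13, 17, 16 and 5 had a summit, against 58.6%, 81.8%, 75.6% and 7.06% of all genes. The 5 in all 4 lists were prmt-5 and prmt-1, for protein arginine methyltransferases, coq-5, for ubiquinone synthesis, anmt-1 and set-25, a histone methyltransferase gene. prmt-5 had folds of 1.86, 1.78, 2.08 and 1.82, and coq-5 had 1.56, 1.55, 2.30 and 1.81. prmt-1 had 1.53, 1.67, 1.87 and 1.63. The folds of anmt-1 and set-25 ran from 1.40 to 1.83. anmt-3 and prmt-7 had a summit in the 3 long lists, with folds of up to 1.83 and 1.69.

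Of 9 regulators linked to the cycle or to the lipid synthesis that follows its loss, 6, 7, 7 and 3 had a summit. The shares of all genes were 58.6%, 81.8%, 75.6% and 7.06%. sbp-1, which encodes the sterol regulatory element binding protein that is activated when phosphatidylcholine is low, had folds of 1.81 in WT 1, 2.14 in WT 2 and 2.70 in GF 1. It had no summit in GF 2. nhr-114, a nuclear hormone receptor gene linked to vitamin B12 and methionine, had 1.74, 1.85, 2.99 and 1.63. daf-16 (1.55, 1.82, 1.88 and 1.47) and lpin-1 (1.66, 1.75, 1.96 and 1.52) had a summit in all 4 lists too, and nhr-23 had 1.69, 1.89 and 1.82 in the long lists.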

How the data were processed

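Peaks were called by the authors on each precipitated sample and not on pooled samples. The submitters' processing notes list MACS2 2.2.7.1 and BWA 0.7.17, with SAMtools 1.10, Trim Galore 0.6.4 and build ce10. Their settings, and the control library, are not given in the sources used here. For every peak the deposited files hold a fold enrichment (a ratio), a -log10 p and -log10 q, and a whole-number score of about 10 times the -log10 q. The lowest deposited -log10 q was 1.3. The files hold no counts, so no interval or count test was possible.

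A summit is the peak's start plus the summit offset, counted from 1. Genes came from a RefSeq table of WBcel235 (protein-coding, 6 nuclear chromosomes), and none of its coordinates is given. Summits were assigned with Python 3.11.15, NumPy 2.4.6 and pandas 2.3.3, and drawn with matplotlib 3.10.9. On simulated lists all 30 of 30 planted summits were assigned to their gene in each of the 4 lists. Samples were grouped by title. The members and the lists of pathway genes were chosen with earlier results of these data known. Named were all 10 members, pathway genes with a summit in all 4 lists, up to 2 more per group by mean rank in the long lists, and the 5 genes nearest to ahcy-1 in log10 rank. Alternatives changed the window, the q threshold, the list length, the assignment and the position of summits by 100 bp.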

Additional observations from a re-analysis of the deposited data

How the results depend on the processing

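Of the counts of genes and the ahcy-1 ranks under each alternative, 96 stayed within 1.5 times the value given and 19 did not. With lists shortened to 905 peaks, members with a summit numbered 2 in WT 1, 1 in WT 2 and 4 in GF 1. Other pathway genes numbered 1, 1 and 6, and 5.27%, 5.51% and 6.08% of all genes had a summit there. At a -log10 q of at least 5, members numbered 4 in WT 1, 4 in both WT lists and 4 in the 3 long lists, where 36.1%, 33.8% and 31.4% of all genes had a summit. Pathway genes numbered 22 of 68 in WT 1 (36.1% of all genes) and 9 in GF 2 (4.17%). With summits inside the gene only, pathway genes numbered 29 in WT 1 and 9 in GF 2, against 34.2% and 2.65% of all genes. Leaving out 1 list at a time, members with a summit in all remaining lists ranged from 3 to 7 of 10 over the 4 lists, 7 to 8 over the 3 long lists, 8 to 10 in WT and 3 to 8 in GF, the highest values of the first and the last without GF 2. In the same order, the share of all genes ranged from 5.70% to 53.3%, 54.7% to 70.9%, 58.6% to 81.8% and 7.06% to 75.6%. Ranked by -log10 q, the ahcy-1 peak stood at 240 and 163 in the WT lists, with 79 and 46 in the GF lists. Moving summits by 100 bp, windows of 1000 or 500 bp, peak overlap and the nearest gene gave counts within 1.5 times. The share of all genes changed under some of these. In WT 1 it was 40.5% at 500 bp and 40.8% by nearest gene, with 8 members in both and 35 and 33 pathway genes. In GF 2 it was 4.59% and 3.49%, with 2 and 3 members and 12 and 10 pathway genes. The cause of the changed counts was not tested, and the settings of 905 peaks and of -log10 q also left fewer peaks. No paired analysis was possible because the results come from no test and lists carry no values to block. Depth is unknown.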
